A study of Homo sapiens with 18 samples.

Results

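Histone lysine methylation is written and removed by a set of enzymes whose transcripts were followed here in OVCAR-3 cells, an established line of high-grade serous ovarian carcinoma, after treatment with 2 inhibitors of the BET bromodomain proteins. The set was a list of 44 genes given by name: 28 that encode methyltransferases, close relatives of methyltransferases or core subunits of Polycomb repressive complex 2 (PRC2), and 16 that encode demethylases or their close relatives. All 44 were found among the 58825 genes counted, by their Ensembl identifiers, and all 44 passed the filter on low counts in every fit. The rule used no measured value, but the list was chosen with earlier results of these data known.

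Poly-A RNA was sequenced from 18 libraries in 6 groups of 3 biological replicates: cells given DMSO (the vehicle), 1 µM i-BET858 or 1 µM i-BET151, each for 4 or 24 h. No group carried a genetic change, and a single cell line was used. A library held between 27323969 and 46299994 counts (median 32267434). The lowest count of any listed gene in any library was 11, and 3 of the 44 had under 100 counts in some library, so counting error was small for most of them.

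A lysine methyltransferase places 1 or more methyl groups on a histone tail, most often through a SET domain. Demethylases take them off, either by the flavin chemistry of KDM1A and KDM1B or by the iron and 2-oxoglutarate chemistry of the JmjC proteins. The position of the lysine matters: methylation of H3K4, H3K36 and H3K79 is found at active promoters, enhancers and gene bodies, whereas that of H3K9 and H3K27 marks silenced chromatin. BET proteins read acetylated, not methylated, lysines, and the inhibitors keep them off chromatin.

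Levels are given in CPM, the count of a gene relative to the size of its library, scaled by the trimmed mean of M values over all 18 libraries, and fold changes are on the log2 scale with their standard error (SE). A gene was called when edgeR's quasi-likelihood test gave an adjusted p under 0.05, with the Benjamini-Hochberg adjustment made over all genes tested in that comparison; every adjusted p below is of this kind unless another tool is named. "Rose" and "fell" are used of called genes only. The main fits compare group means without the replicate number, and fits with it as a block are named as such. At least 500 exonic bases of 14 of the 44 genes are shared with another annotated gene, on the same strand for KMT2A, KMT2D and KDM4A. In bulk RNA, fewer cells that express a gene and less of its RNA per cell cannot be told apart.

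The cells carried the markers of their label and both drugs acted. The 9 markers of serous epithelium, among them PAX8 (387 to 612 CPM), were detected in every library, and their summed level ran from 6770 to 12100 CPM, highest with i-BET858 at 4 h and lowest with either drug at 24 h. The 8 markers of immune, endothelial and stromal cells summed to 0.852 to 8.57 CPM. HEXIM1, a known marker of BET inhibition, rose by 1.87 (SE 0.12, adjusted p = 1.46e-06) with i-BET858 and by 1.25 (SE 0.12, adjusted p = 4.96e-05) with i-BET151 at 4 h. The libraries of replicate 3 stood apart, with 17817 to 20642 genes detected against 23674 to 24947 in replicates 1 and 2. Results were therefore also computed from replicates 1 and 2 alone and read off replicate 3 alone.

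In untreated cells the listed transcripts covered a wide range. Per kilobase of the MANE Select transcript (the reference transcript chosen jointly by RefSeq and Ensembl), KDM1A, an H3K4 demethylase of the CoREST complex, was highest in DMSO at 4 h at 43.3 ± 5.56 CPM per kb (SD, n = 3). KDM2A followed at 31.4 ± 3.0, then the H3K36 methyltransferase NSD2 at 25.3 ± 1.81. At the other end stood EZH1 at 1.84 ± 0.289, KDM7A at 1.12 ± 0.136, SETDB2 at 1.12 ± 0.132 and KDM8 at 0.666 ± 0.0841 CPM per kb, 65-fold below KDM1A. Of the 43 neighbouring pairs in this order, 37 had overlapping ranges and do not differ beyond their spread; the 6 that did not overlap were KDM1A over KDM2A, KDM2A over NSD2, and 4 pairs among the genes of lower level.

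The promoters of 41 of the 44 genes could be matched by symbol to RefSeq windows on GRCh38.p14, each from 250 bases before to 50 bases after 1 annotated start; that start need not be the one used in OVCAR-3 cells. Those of SETDB1 and KMT5B, which fell most strongly or most tightly, and of KDM3A and KDM4B, which rose in all 4 comparisons with DMSO, are shown because the results below turn on these genes. Each window is 300 bases on the gene's own strand, and capitals mark matches to the motifs named after them, on either strand.

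SETDB1 (chr1:150926013-150926312, plus strand): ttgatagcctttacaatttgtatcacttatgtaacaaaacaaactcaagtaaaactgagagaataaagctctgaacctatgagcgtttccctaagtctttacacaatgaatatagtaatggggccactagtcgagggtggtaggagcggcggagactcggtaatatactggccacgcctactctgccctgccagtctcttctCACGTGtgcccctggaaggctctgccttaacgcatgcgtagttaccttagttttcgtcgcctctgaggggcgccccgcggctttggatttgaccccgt

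KMT5B (chr11:68213599-68213898, minus strand): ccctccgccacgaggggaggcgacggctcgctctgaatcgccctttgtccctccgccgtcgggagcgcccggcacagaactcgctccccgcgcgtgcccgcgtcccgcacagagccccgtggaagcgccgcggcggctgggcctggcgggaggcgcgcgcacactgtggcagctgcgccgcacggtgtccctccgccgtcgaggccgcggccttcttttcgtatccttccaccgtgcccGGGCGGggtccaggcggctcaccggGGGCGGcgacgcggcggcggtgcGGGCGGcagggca

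KDM3A (chr2:86441121-86441420, plus strand): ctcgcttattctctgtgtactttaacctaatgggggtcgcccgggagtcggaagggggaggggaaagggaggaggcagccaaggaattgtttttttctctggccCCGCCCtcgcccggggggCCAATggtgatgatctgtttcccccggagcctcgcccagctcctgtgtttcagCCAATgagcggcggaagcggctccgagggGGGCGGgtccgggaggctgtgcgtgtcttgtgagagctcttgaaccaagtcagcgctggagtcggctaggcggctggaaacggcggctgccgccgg

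KDM4B (chr19:4968863-4969162, plus strand): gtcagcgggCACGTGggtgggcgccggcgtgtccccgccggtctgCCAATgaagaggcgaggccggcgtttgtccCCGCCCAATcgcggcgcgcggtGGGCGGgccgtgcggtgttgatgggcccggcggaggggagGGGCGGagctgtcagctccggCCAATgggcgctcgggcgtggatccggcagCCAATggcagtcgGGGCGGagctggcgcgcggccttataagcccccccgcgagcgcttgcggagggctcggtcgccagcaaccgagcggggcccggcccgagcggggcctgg

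The windows were searched on both strands, and most of these promoters held a GC box. The GC box (GGGCGG) was present in 31 of 41 windows (75.6%), against 44.6% of 27305 promoters of the same length. The other strings were the CCAAT box (CCAAT; 31.7% against 35.7%), the E-box (CACGTG; 14.6% against 7.43%), the ETS core (CCGGAAG; 12.2% against 10.7%), the hypoxia response core (ACGTG, which every E-box also contains; 26.8% against 21.6%) and the E2F core (TTTGGCGC; 2.44% against 0.659%). The TATA box (TATAAA; 12% of all promoters) was not found in any of the 41. The median GC content was 66.7% against 58.3% for all promoters. Among the 19 matched genes that fell with i-BET858 at 4 h, 16 held a GC box and 4 an E-box. As the windows above show, SETDB1 had an E-box and no GC box, KMT5B had 3 GC boxes, KDM3A had 2 GC boxes and 2 CCAAT boxes, and KDM4B had an E-box with 4 matches each of the GC and CCAAT boxes. These are matches of letters, not measured binding.

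The first question was how the enzymes responded to each drug at 4 h. With i-BET858 most called genes fell: 24 of the 44 were called, 21 lower and 3 higher, or 54.5% against 30.8% of all 17192 genes tested (16.3% lower and 14.5% higher). The fall was spread over writers of nearly every mark, led by the H3K9 enzymes SETDB1 and SUV39H1, the H4K20 enzyme KMT5B and the H3K36 enzyme NSD1. Of the 28 writers and PRC2 subunits, 17 fell and 1 (EZH2) rose, with a median log2 fold change of −0.58; of the 16 demethylases, 4 fell and 2 rose, with a median of −0.11. The median over all genes tested was 0.02. Outside the list, it was −0.47 for 11 other JmjC genes and −0.55 for 13 other SET-domain genes. With i-BET151, 7 of the 44 fell and 2 rose (20.5% called, against 16.2% of all genes, 8.43% lower and 7.81% higher); when the replicate number was added to the fit as a block, 20 were called (45.5%), against 32.7% of all genes in that fit. Calls of at least 2-fold numbered 6 with i-BET858 (13.6%, against 14.1% of all genes) and 2 with i-BET151 (4.55%, against 7.1%).

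**Figure D1:**
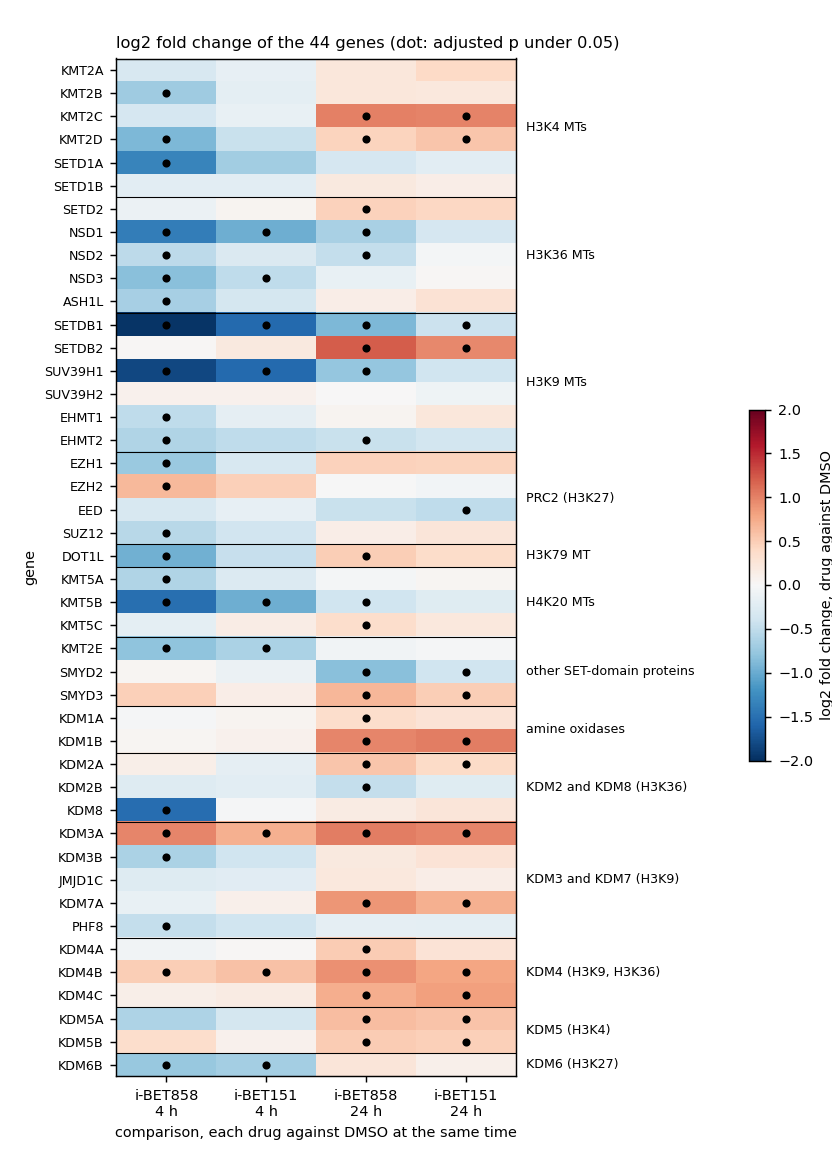
log2 fold change of each of the 44 genes (rows, grouped by the mark acted on; MT, methyltransferase) with each drug against DMSO at the same time (columns), on a colour scale from −2 (blue) to 2 (red); a dot marks an adjusted p under 0.05. The 4 h columns hold 21 and 7 falls, and the 24 h columns hold 17 and 12 rises.

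At 24 h the balance was the other way. With i-BET858, 25 of the 44 were called, 17 higher and 8 lower (56.8%, against 41.7% of 17157 genes tested, 20.5% higher and 21.3% lower). The listed demethylases made up much of the rise: 10 of 16 rose and 1 fell, with a median log2 fold change of 0.51. Of the 28 writers and PRC2 subunits 7 rose and 7 fell, with a median of 0.03. Relatives outside the list did not share this lean: 3 rose and 2 fell of 11 other JmjC genes (median −0.05). Of 13 other SET-domain genes 2 rose and 5 fell (median −0.09). With i-BET151, 12 rose and 3 fell (34.1%, against 33.8% of all genes, 17.2% higher and 16.6% lower), a share of calls close to that of all genes, with 8 of 16 demethylases higher and none lower. In the fit with the replicate block 24 were called (54.5%, 17 higher and 7 lower), against 45.9% of all genes in that fit. With replicates 1 and 2 only 27 were called (61.4%, 18 higher and 9 lower), against 54.2% of all genes, and KDM2B was then a demethylase called lower (adjusted p = 0.0485). Calls of at least 2-fold numbered 3 and 1 for the respective drugs (6.82% and 2.27%), against 18.8% and 13.7% of all genes.

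**Figure D2:**
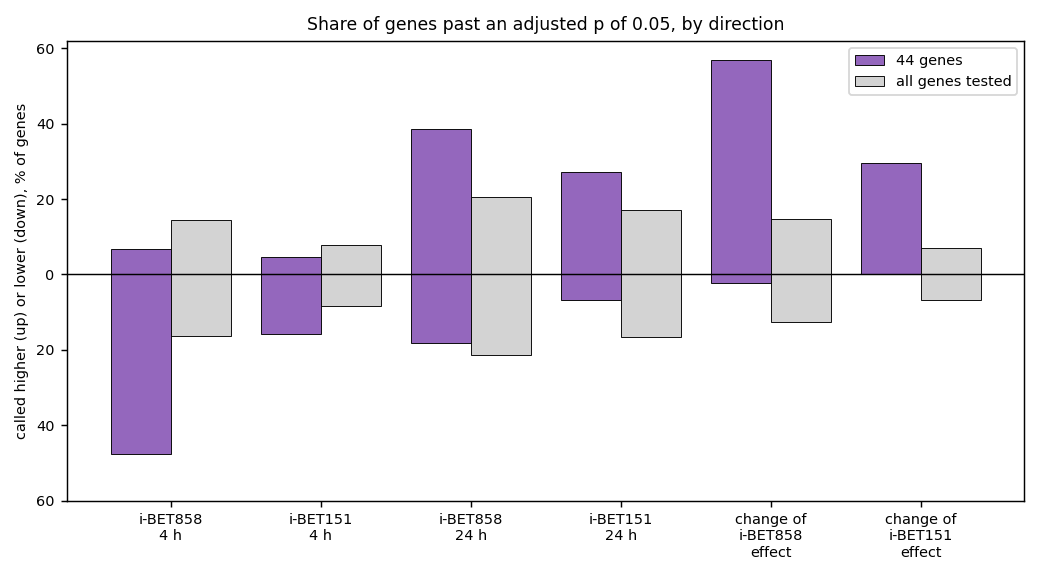
Share of genes past an adjusted p of 0.05 (y axis, % of genes; higher drawn upward, lower downward) for the 44 listed genes (purple) and all genes tested (grey), in each drug comparison with DMSO and in the test of the change of each effect from 4 to 24 h. With i-BET858 at 4 h, 47.7% of the listed genes were lower against 16.3% of all genes; for the change of its effect, 56.8% moved upward against 14.6%.

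Among the H3K9 methyltransferases, SETDB1 and SUV39H1 showed the strongest falls of the whole set at 4 h, whereas their relatives SETDB2 and SUV39H2 did not fall at either time. SETDB1, which is recruited by TRIM28 to silence retroelements and other loci, stood at 36, 34.6 and 42.2 CPM in DMSO at 4 h, at 8.50, 7.15 and 13.1 with i-BET858 and at 12.7, 9.96 and 15.9 with i-BET151. The levels at 24 h were 31.0, 30.9 and 36.2 in DMSO, 19.2, 16.5 and 18.5 with i-BET858 and 22.8, 24.2 and 27.1 under i-BET151. Every treated library lay below every DMSO library of its time. SETDB1 fell by 1.96 (SE 0.24, adjusted p = 0.000125) and 1.55 (SE 0.24, adjusted p = 0.00127) at 4 h under i-BET858 and i-BET151, and by 0.89 (SE 0.13, adjusted p = 0.000257) and 0.43 (SE 0.13, adjusted p = 0.0234) at 24 h. The last of these calls was lost without i-BET151 replicate 1 or 2 or DMSO replicate 3 of 24 h (adjusted p = 0.0795 to 0.0884), and in the fit of all 18 libraries (adjusted p = 0.122). Its exons share 948 bases with those of CERS2 on the other strand, and the strand setting of the counting is not given in the sources used here.

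SUV39H1, which trimethylates H3K9 in pericentromeric heterochromatin, went the same way. Its level was 11.5, 10.7 and 11.5 CPM in DMSO at 4 h, 2.63, 2.53 and 4.37 with i-BET858 and 4.20, 5.09 and 2.30 under i-BET151. By 24 h it was 11.3, 10.5 and 11.3 in DMSO, 5.86, 6.81 and 7.22 with i-BET858 and 8.62, 7.88 and 8.82 under i-BET151. The groups did not overlap with either drug at either time. SUV39H1 fell by 1.81 (SE 0.31, adjusted p = 0.0011) and 1.55 (SE 0.31, adjusted p = 0.00614) at 4 h and by 0.77 (SE 0.15, adjusted p = 0.00219) with i-BET858 at 24 h. With i-BET151 at 24 h the value of −0.41 was not called, but 4 of 18 alternative fits called it, among them those with the replicate block (adjusted p = 0.0357) and with replicates 1 and 2 only (adjusted p = 0.015). SUV39H1 also shares 685 exonic bases with an unnamed gene on the other strand.

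SETDB2 was called higher at 24 h. It stood at 6.39, 5.76 and 2.13 CPM in DMSO at 24 h, against 12.9, 12.1 and 8.75 with i-BET858 and 9.96, 10.1 and 8.03 under i-BET151. All treated libraries were above all DMSO libraries, of which replicate 3 was far below the other two. SETDB2 rose by 1.21 (SE 0.33, adjusted p = 0.0132) and 0.96 (SE 0.33, adjusted p = 0.0456), and without DMSO replicate 3 by 0.88 (adjusted p = 0.00753) and 0.62 (adjusted p = 0.044). The call was lost without i-BET858 replicate 1 for i-BET858 (adjusted p = 0.0505), and for i-BET151 without any 1 of 6 libraries of 24 h (adjusted p = 0.0576 to 0.124), with total library size (0.0766) and with only the 2 groups compared in the fit (0.0748). At 4 h it stood at 7.03, 7.68 and 6.05 CPM in DMSO, 7.23, 9.55 and 4.4 with i-BET858 and 9.03, 9.35 and 5.45 under i-BET151, groups that overlapped. Its values of 0.03 and 0.19 there were not called, and the changes between the times were not called either (adjusted p = 0.0662 and 0.312). SUV39H2 was not called in any comparison and stayed between 13.9 and 20.9 CPM in all 18 libraries. EHMT1 and EHMT2, the pair that dimethylates H3K9 in euchromatin, fell by 0.51 (SE 0.12, adjusted p = 0.00645) and 0.61 (SE 0.18, adjusted p = 0.0232) with i-BET858 at 4 h. EHMT2 was still lower by −0.45 (SE 0.15, adjusted p = 0.0391) at 24 h, where EHMT1 stood at 0.06 and was not called. The calls of EHMT2 were lost without any 1 of 3 libraries at 4 h (adjusted p = 0.0697 to 0.0944) and of 6 at 24 h (adjusted p = 0.058 to 0.137). At 24 h the call was also lost with all 18 libraries in 1 fit (adjusted p = 0.0741) and with only the 2 groups compared (adjusted p = 0.0636). Under i-BET151 EHMT2 stood at −0.51 at 4 h and −0.36 at 24 h. Neither was called (adjusted p = 0.00623 and 0.0072 with the replicate block).

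**Figure D3:**
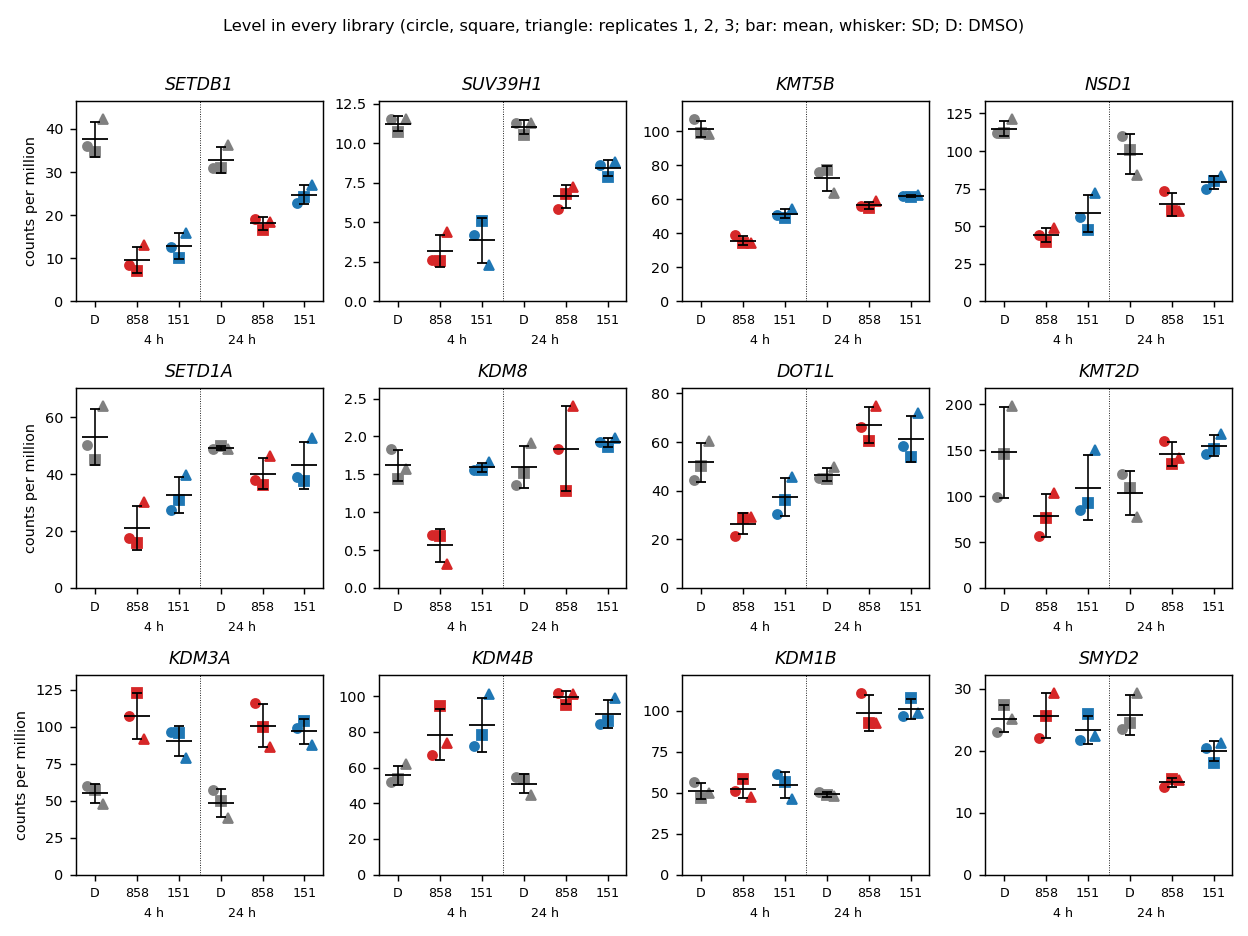
Level (CPM, y axis from 0) in every library of 12 listed genes for DMSO (D, grey), i-BET858 (858, red) and i-BET151 (151, blue) at 4 h (left of the dotted line) and 24 h (right); marker shapes give the replicate, bars the mean and whiskers the SD of 3 replicates. SETDB1 and SUV39H1 were below DMSO in all treated libraries, KDM3A above it in all of them, KDM1B was higher at 24 h, and KDM8 with i-BET858 was below all other libraries of 4 h.

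Of the 3 enzymes that methylate H4K20, KMT5B gave the tightest response. KMT5B, which makes the di- and trimethyl forms, stood at 107, 99.0 and 98.2 CPM in DMSO at 4 h, 38.8, 34.2 and 34.3 with i-BET858 and 51.0, 49.3 and 54.3 under i-BET151. It fell by 1.5 (SE 0.12, adjusted p = 5.21e-06) and 0.98 (SE 0.11, adjusted p = 0.000223). The 3 groups did not overlap each other. At 24 h it stood at 76.1, 77.2 and 64.0 in DMSO, 56.1, 54.9 and 58.8 with i-BET858, a fall of 0.39 (SE 0.09, adjusted p = 0.00648), and 61.8, 61.6 and 62.4 with i-BET151, where −0.25 was not called. It was called in 4 of 18 alternative fits (adjusted p = 0.0015 to 0.0495), among them those with the replicate block (0.0417) and with replicates 1 and 2 only (0.0015). DMSO itself was lower at 24 h than at 4 h for this gene, by −0.49 (SE 0.10, adjusted p = 0.0749; 0.0101 with the block), so the smaller fall at 24 h is measured against a lower control. KMT5A, the H4K20 monomethylase whose protein follows the cell cycle, fell by 0.60 (SE 0.15, adjusted p = 0.00834) with i-BET858 at 4 h. KMT5C rose by 0.35 (SE 0.11, adjusted p = 0.0282) with i-BET858 at 24 h, a call lost without any 1 of 5 libraries (adjusted p = 0.05 to 0.11), with total library size (0.128), without the filter on low counts (0.103) and with all 18 libraries in 1 fit (0.0503).

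The H3K36 methyltransferases of the NSD family all fell with i-BET858 at 4 h, and NSD1 and NSD3 also with i-BET151. NSD1 stood at 112, 112 and 121 CPM in DMSO, 44.2, 39.6 and 48.7 with i-BET858 and 56.2, 47.2 and 72.0 under i-BET151, a fall of 1.38 (SE 0.16, adjusted p = 7.66e-05) and 0.98 (SE 0.16, adjusted p = 0.00161). At 24 h NSD1 stood at 110, 101 and 83.9 in DMSO, 73.3, 60.0 and 60.3 with i-BET858 and 74.5, 80.3 and 83.1 under i-BET151. It fell by 0.64 (SE 0.12, adjusted p = 0.00156) with i-BET858, and its value of −0.33 with i-BET151 was not called, but was in 6 of 18 alternative fits (adjusted p = 0.00143 to 0.0462), the replicate block (0.0237) and replicates 1 and 2 only (0.00143) among them. NSD1 was thus below DMSO in every treated library of both times.

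NSD3 stood at 69.2, 76.8 and 72.8 CPM in DMSO at 4 h, 33.5, 48.0 and 41.1 with i-BET858 and 43.9, 51.4 and 58.5 under i-BET151. It fell by 0.83 (SE 0.16, adjusted p = 0.00195) and 0.51 (SE 0.16, adjusted p = 0.0455), the latter call lost without any 1 of 5 libraries (adjusted p = 0.0902 to 0.176). At 24 h its 3 groups overlapped, at 75.2, 69.0 and 58.2 in DMSO, 65.7, 58.5 and 63.6 with i-BET858 and 65.1, 72.2 and 70.6 under i-BET151. NSD2 fell with i-BET858 at both times, by 0.53 (SE 0.10, adjusted p = 0.00242) and 0.48 (SE 0.15, adjusted p = 0.0248), and with i-BET151 stood at −0.29 (adjusted p = 0.0122 with the replicate block) and −0.04, neither called; the call at 24 h was lost without any 1 of 4 libraries (adjusted p = 0.0539 to 0.106). ASH1L, an H3K36 dimethylase of active genes, fell by 0.66 (SE 0.21, adjusted p = 0.03) with i-BET858 at 4 h, a call lost without DMSO replicate 2 or 3 or i-BET858 replicate 1 (adjusted p = 0.05 to 0.125). Its value of −0.35 with i-BET151 at 4 h was not called (adjusted p = 0.0471 with the replicate block). SETD2, which trimethylates H3K36 behind the elongating polymerase, did not share the early fall (−0.12) and rose by 0.46 (SE 0.16, adjusted p = 0.0434) with i-BET858 at 24 h. That call was lost without any 1 of 6 libraries (adjusted p = 0.0548 to 0.152), with total library size (0.156) and with only the 2 groups compared (0.0636). Under i-BET151 at 24 h SETD2 stood at 0.41, not called (adjusted p = 0.00346 with the replicate block).

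The H3K4 methyltransferases of the COMPASS family moved in unlike ways. SETD1A, which serves promoter H3K4 trimethylation, stood at 50.3, 45.0 and 63.9 CPM in DMSO at 4 h, 17.5, 15.7 and 30.1 with i-BET858 and 27.4, 31.0 and 39.6 under i-BET151. It fell by 1.32 (SE 0.25, adjusted p = 0.00195) with i-BET858, while −0.70 with i-BET151 was not called. It was called in 9 of 18 alternative fits (adjusted p = 0.000549 to 0.0468), including the replicate block (0.000549) and replicates 1 and 2 only (0.00418). SETD1A at 24 h stood at 48.8, 49.9 and 48.8 in DMSO, 38.0, 36.2 and 46.3 with i-BET858 and 39.1, 37.7 and 52.6 under i-BET151. Its values of −0.33 and −0.21 at 24 h were not called, though all i-BET858 libraries lay below DMSO. That of i-BET858 was called with the replicate block (adjusted p = 0.0148), and both with replicates 1 and 2 only (0.000513 and 0.00132). In replicate 3 alone the log2 ratios at 24 h were −0.08 and 0.11, against −0.44 and −0.40 in the fit of replicates 1 and 2. KMT2B, a promoter enzyme, fell by 0.72 (SE 0.17, adjusted p = 0.00741) with i-BET858 at 4 h. SETD1B and KMT2A were not called in any of the 4 comparisons; KMT2A ranged from 11.5 to 39.8 CPM over the libraries, lowest in DMSO replicate 3 at 24 h, and shares 5755 exonic bases with another gene on the same strand.

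KMT2C and KMT2D, which monomethylate H3K4 at enhancers, both stood higher at 24 h. KMT2C was at 54.3, 44.7 and 24.2 CPM in DMSO at 24 h, 98.4, 78.2 and 77.6 with i-BET858 and 83.4, 89.9 and 75.1 under i-BET151. It rose by 1.01 (SE 0.23, adjusted p = 0.0049) and 0.99 (SE 0.23, adjusted p = 0.00707), and without the low DMSO replicate 3 by 0.77 (adjusted p = 0.00204) and 0.74 (adjusted p = 0.00345). At 4 h its levels were 33.8, 61.5 and 62.1 in DMSO, 36.3, 45.7 and 42.4 with i-BET858 and 43.3, 44.5 and 54.3 under i-BET151, and the groups overlapped.

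KMT2D fell at 4 h and rose at 24 h. Its levels were 98.8, 146 and 198 CPM in DMSO at 4 h, 56.7, 76.5 and 103 with i-BET858 and 85.1, 92.1 and 150 under i-BET151; within each replicate number the order was DMSO, i-BET151, i-BET858. At 24 h they were 124, 109 and 77.7 in DMSO, 160, 135 and 141 with i-BET858 and 146, 151 and 168 under i-BET151. The log2 fold change with i-BET858 went from −0.90 (SE 0.29, adjusted p = 0.0361) to 0.45 (SE 0.15, adjusted p = 0.0334), and with i-BET151 from −0.44, not called (adjusted p = 0.00296 with the replicate block), to 0.56 (SE 0.15, adjusted p = 0.0154). The call at 4 h was lost without DMSO replicate 2 or 3 or i-BET858 replicate 1 or 2 (adjusted p = 0.0709 to 0.138), that of i-BET858 at 24 h without any 1 of 4 libraries (adjusted p = 0.0512 to 0.124), and that of i-BET151 without its replicate 3 (adjusted p = 0.0562). With all 18 libraries in 1 fit both calls at 24 h were lost (adjusted p = 0.138 and 0.0912), and that of i-BET858 also with total library size (0.121) and with only the 2 groups compared (0.0556).

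DOT1L, the methyltransferase of H3K79 in transcribed genes, showed the same change of sign with smaller errors. It stood at 44.5, 50.1 and 60.5 CPM in DMSO at 4 h, 21.5, 28.6 and 29.2 with i-BET858 and 30.3, 36.1 and 45.8 under i-BET151. At 24 h it stood at 45.3, 44.7 and 49.8 in DMSO, 66.0, 60.4 and 74.8 with i-BET858 and 58.4, 53.7 and 71.8 under i-BET151. All treated libraries of 24 h were above the 3 DMSO libraries, and at 4 h those of i-BET858 were below them. DOT1L fell by 0.96 (SE 0.19, adjusted p = 0.00262) at 4 h and rose by 0.49 (SE 0.13, adjusted p = 0.0132) at 24 h with i-BET858; the later call was lost without DMSO replicate 2 (adjusted p = 0.0508). With i-BET151 the values were −0.47 and 0.37, neither called. They were called in 3 and 8 of 18 alternative fits, among them the replicate block (adjusted p = 0.00294 and 0.00397) and replicates 1 and 2 only (adjusted p = 0.0405 and 0.0149).

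Within PRC2, which methylates H3K27, the catalytic subunits moved apart at 4 h. EZH2 rose by 0.64 (SE 0.20, adjusted p = 0.031) with i-BET858, from 56.4, 58.3 and 47.9 CPM in DMSO to 94.8, 97.8 and 60.9. Its relative EZH1 fell by 0.74 (SE 0.21, adjusted p = 0.0214), from 9.15, 9.43 and 6.99 to 6.06, 4.63 and 4.63. Neither pair of groups overlapped, yet both calls depended on single libraries: that of EZH2 was lost without any 1 of 5 (adjusted p = 0.0658 to 0.121) and that of EZH1 without any 1 of 4 (adjusted p = 0.0553 to 0.083). The call of EZH2 was also lost with total library size (adjusted p = 0.122), and that of EZH1 without the filter on low counts (0.0519) and with all 18 libraries in 1 fit (0.0735). SUZ12, the scaffold of the complex, fell by 0.56 (SE 0.12, adjusted p = 0.00453) with i-BET858 at 4 h. Under i-BET151 at 4 h SUZ12 stood at −0.39 and EZH2 at 0.475, neither called (adjusted p = 0.00811 and 0.00298 with the replicate block). EED, which reads trimethylated H3K27, was called with i-BET151 at 24 h (−0.52, SE 0.17, adjusted p = 0.0377), a call lost without any 1 of 6 libraries (adjusted p = 0.0563 to 0.115) or with only the 2 groups compared (0.0549), and stood at −0.44 with i-BET858. That value was not called, but was in 7 of 18 alternative fits, among them those with the replicate block (adjusted p = 0.00735) and with replicates 1 and 2 only (adjusted p = 0.00506). At 24 h EZH2 was at −0.02 and −0.06 with the 2 drugs, neither called. EZH1 stood at 0.46 and 0.45 at that time, also not called. It was called higher with the replicate block (adjusted p = 0.0105 and 0.0145) and with replicates 1 and 2 only (0.0159 and 0.0263).

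The other SET-domain genes completed the writers. KMT2E, a relative of the COMPASS enzymes that is not known for strong enzyme activity, fell at 4 h by 0.81 (SE 0.15, adjusted p = 0.00181) and 0.64 (SE 0.15, adjusted p = 0.0135); the second call was lost without i-BET151 replicate 2 (adjusted p = 0.0651). SMYD2, which also methylates non-histone proteins, was at 23.5, 24.5 and 29.4 CPM in DMSO at 24 h, 14.1, 15.4 and 15.3 with i-BET858 and 20.5, 18.1 and 21.2 under i-BET151. All treated libraries lay below DMSO there. It fell by 0.83 (SE 0.14, adjusted p = 0.000631) and 0.39 (SE 0.13, adjusted p = 0.0437), the second call being lost without any 1 of 7 libraries (adjusted p = 0.0546 to 0.157), without the filter on low counts (0.11) and with only the 2 groups compared (0.0705), and was at 0.03 and −0.11 at 4 h. There the groups overlapped, at 23.0, 27.4 and 25.2 CPM in DMSO, 22.1, 25.7 and 29.3 with i-BET858 and 21.8, 26.0 and 22.4 under i-BET151. SMYD3 rose at 24 h by 0.66 (SE 0.18, adjusted p = 0.0112) and 0.50 (SE 0.18, adjusted p = 0.0488); the second call was lost without any 1 of 6 libraries (adjusted p = 0.0642 to 0.17), with DESeq2's size factors (0.0583), with all 18 libraries in 1 fit (0.132) and with only the 2 groups compared (0.0682).

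Among the demethylases, KDM3A and KDM4B rose with both drugs at both times. KDM3A, which removes mono- and dimethyl H3K9 and is a known hypoxia-responsive gene, stood at 59.8, 57.2 and 47.8 CPM in DMSO at 4 h, 107, 123 and 91.8 with i-BET858 and 96.5, 95.8 and 78.8 under i-BET151. At 24 h it stood at 57.4, 49.9 and 38.1 in DMSO, 116, 100 and 86.4 with i-BET858 and 99.1, 104 and 87.4 under i-BET151. No treated library overlapped a DMSO library. The log2 fold changes were 0.97 (SE 0.15, adjusted p = 0.000494) and 0.71 (SE 0.15, adjusted p = 0.00703) at 4 h and 1.02 (SE 0.15, adjusted p = 0.000373) and 0.98 (SE 0.15, adjusted p = 0.000746) at 24 h, and the adjusted p stayed under 0.05 in every alternative fit. Of the 4 values, that of i-BET858 at 24 h was past 2-fold.

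KDM4B, an H3K9 and H3K36 trimethyl demethylase, stood at 51.7, 53.4 and 61.9 CPM in DMSO at 4 h, 67.0, 94.4 and 73.8 with i-BET858 and 71.9, 78.4 and 101 under i-BET151. At 24 h it stood at 54.6, 53.6 and 44.8 in DMSO, 102, 95.2 and 101 with i-BET858 and 84.6, 86.1 and 98.8 under i-BET151. The groups did not overlap at either time and were farther apart at 24 h. It rose by 0.50 (SE 0.17, adjusted p = 0.0424) and 0.59 (SE 0.17, adjusted p = 0.0347) at 4 h, calls lost without any 1 of 7 and of 5 libraries (adjusted p = 0.0502 to 0.168 and 0.0505 to 0.126; 0.131 for i-BET858 with total library size), and by 0.92 (SE 0.11, adjusted p = 6.58e-05) and 0.80 (SE 0.11, adjusted p = 0.000269) at 24 h. Its relative KDM4C was not called at 4 h (0.11 and 0.16) and rose by 0.73 (SE 0.11, adjusted p = 0.00039) and 0.82 (SE 0.11, adjusted p = 0.000276) at 24 h. KDM4A rose by 0.51 (SE 0.12, adjusted p = 0.00624) with i-BET858 at 24 h; 2086 of its exonic bases are shared with a gene on the same strand, between which reads can be split or lost.

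KDM1B, the flavin-dependent H3K4 demethylase known from growing oocytes, rose only at 24 h. It stood at 50.6, 48.4 and 47.7 CPM in DMSO at 24 h, 111, 92.3 and 92.3 with i-BET858 and 96.5, 108 and 98.9 under i-BET151. These are rises of 0.97 (SE 0.10, adjusted p = 3.33e-05) and 1.03 (SE 0.10, adjusted p = 4.12e-05), among the tightest of the set. At 4 h its 3 groups overlapped, at 56.6, 46.9 and 49.7 CPM in DMSO, 51.1, 58.6 and 47.6 with i-BET858 and 61.5, 56.2 and 46.0 under i-BET151. KDM1A, its paralogue, rose by 0.36 (SE 0.10, adjusted p = 0.0134) with i-BET858 at 24 h, a call lost without i-BET858 replicate 1 or 2 (adjusted p = 0.061 and 0.0519) or with total library size (0.0905). Under i-BET151 at 24 h KDM1A stood at 0.28, not called (adjusted p = 0.00719 with the replicate block).

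KDM5A and KDM5B, which remove H3K4 trimethylation, rose at 24 h with both drugs. KDM5A rose by 0.61 (SE 0.15, adjusted p = 0.00754) and 0.56 (SE 0.15, adjusted p = 0.0149), and KDM5B by 0.52 (SE 0.10, adjusted p = 0.00216) and 0.48 (SE 0.10, adjusted p = 0.00453). At 4 h with i-BET858 KDM5A stood at −0.61 and KDM5B at 0.34; neither was called, but 11 and 7 of 18 alternative fits called them, that with the replicate block among them (adjusted p = 0.000479 and 0.00966). The call of KDM5A with i-BET151 at 24 h was lost without DMSO replicate 2 or i-BET151 replicate 3 (adjusted p = 0.0587 and 0.0518). Its value of −0.35 with i-BET151 at 4 h was not called (adjusted p = 0.0223 with the replicate block).

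KDM7A, a dual demethylase of H3K9 and H3K27, was at 5.57, 5.36 and 7.55 CPM in DMSO at 24 h, 11.7, 9.81 and 13.7 with i-BET858 and 8.96, 12.4 and 9.49 under i-BET151. It rose by 0.89 (SE 0.21, adjusted p = 0.00577) and 0.71 (SE 0.21, adjusted p = 0.0226), the second call being lost without DMSO replicate 1 or 2 or i-BET151 replicate 2 (adjusted p = 0.0809 to 0.0986). The DMSO level itself was 8.91, 11.2 and 10.9 CPM at 4 h, above all 3 DMSO libraries of 24 h, and overlapped the treated libraries of 4 h, at 6.82, 11.2 and 9.89 with i-BET858 and 8.54, 8.80 and 15.8 under i-BET151. DMSO at 24 h differed from 4 h by −0.75 (SE 0.25, adjusted p = 0.308), not called.

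KDM8, a JmjC protein first described as an H3K36 demethylase, was the gene with the lowest level and with the widest gap between the drugs at 4 h. It stood at 1.84, 1.44 and 1.57 CPM in DMSO, 0.693, 0.689 and 0.312 with i-BET858 and 1.56, 1.56 and 1.66 under i-BET151. The i-BET858 libraries were all below the others, while those of i-BET151 lay within the DMSO range. It fell by 1.52 (SE 0.42, adjusted p = 0.0175) with i-BET858, lost without DMSO replicate 1 (adjusted p = 0.0661) and without the filter on low counts (0.0532), and stood at −0.02 with i-BET151. At 24 h the 3 groups overlapped, at 1.36, 1.52 and 1.91 in DMSO, 1.83, 1.28 and 2.40 with i-BET858 and 1.93, 1.86 and 1.98 under i-BET151. KDM2A, which binds unmethylated CpG islands, rose at 24 h by 0.56 (SE 0.11, adjusted p = 0.00225) and 0.38 (SE 0.11, adjusted p = 0.0238), while its relative KDM2B fell by 0.48 (SE 0.10, adjusted p = 0.00273) with i-BET858. The call of KDM2A with i-BET151 was lost without any 1 of 4 libraries (adjusted p = 0.0502 to 0.0814).

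The remaining demethylases fell early or not at all. KDM3B fell by 0.64 (SE 0.14, adjusted p = 0.00488) and PHF8 by 0.48 (SE 0.13, adjusted p = 0.0166) with i-BET858 at 4 h, the latter call lost without any 1 of 3 libraries (adjusted p = 0.0512 to 0.0674). Under i-BET151 at 4 h they stood at −0.39 and −0.40, not called (adjusted p = 0.00301 and 0.0148 with the replicate block). KDM3B was at 0.27 with i-BET151 at 24 h, not called (adjusted p = 0.0327 with the block). KDM6B, the inducible H3K27 demethylase, fell at 4 h by 0.76 (SE 0.21, adjusted p = 0.0173) and 0.68 (SE 0.21, adjusted p = 0.0464). These calls were lost without DMSO replicate 2 or i-BET858 replicate 1 for i-BET858 (adjusted p = 0.0558 and 0.0686) and without any 1 of 6 libraries for i-BET151 (adjusted p = 0.0579 to 0.16). At 24 h KDM6B was at 0.25 and 0.10, not called. JMJD1C was not called in any comparison with DMSO.

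The next question was whether the effects changed between 4 and 24 h. They did, and nearly always upward: the test of the change in the i-BET858 effect called 26 of the 44 genes, 25 toward higher and 1 (SMYD2) toward lower values, or 59.1% against 27.2% of 18154 genes tested (14.6% upward and 12.6% downward). For i-BET151 it called 13, all upward (29.5%, against 13.8% of all genes, 6.99% upward and 6.82% downward), and 22 in the fit with the replicate block (50%, against 25.2% of all genes). Leaving out each library in turn gave 6 to 15 for i-BET151 (13.6% to 34.1%, against 8.45% to 14.3% of all genes). Of the called changes, 12 and 3 were at least 2-fold (27.3% and 6.82% of the 44), against 15.1% and 6.7% of all genes. The median change over the 44 was 0.64 and 0.47, while over all genes it was 0.0031 and 0.0070. The largest upward changes with i-BET858 were those of KDM8 (1.72, SE 0.50, adjusted p = 0.016), DOT1L (1.49, SE 0.24, adjusted p = 0.000154), KMT2D (1.40, SE 0.36, adjusted p = 0.00697), KMT2C (1.39, SE 0.34, adjusted p = 0.00532) and KDM5A (1.27, SE 0.28, adjusted p = 0.0022). The smallest adjusted p was that of KMT5B (1.15, SE 0.14, adjusted p = 1.46e-05). The 13 genes called for i-BET151 ranged from 0.58 (KDM2A, SE 0.19, adjusted p = 0.0496) to 1.16 (SUV39H1, SE 0.35, adjusted p = 0.032). These 2 calls were lost under 18 and 11 of 26 alternative fits (adjusted p up to 0.118 and 0.072), and that of KDM8 with i-BET858 without the filter on low counts (0.131). For i-BET151 the call of KDM6B was lost in 16 fits (adjusted p up to 0.127) and that of NSD1 in 10 (0.0925). For i-BET858 that of SETD2 was lost in 14 (0.112), and those of EZH1 and KDM4A in 10 each (0.0954 and 0.0994). KMT2C, KDM5A, DOT1L and KDM4C with i-BET151 lost theirs in 1 to 8 fits. KDM7A, SUV39H1, ASH1L and KMT5A with i-BET858 lost theirs in 1 to 7. An upward change had different forms. In SETDB1, SUV39H1, NSD1 and KMT5B it was a fall that became smaller, and in DOT1L and KMT2D a fall that became a rise. In KDM1B and KDM4C it was a rise from a level near that of DMSO. KDM7A also started near DMSO, but its DMSO mean went from 10.3 CPM at 4 h to 6.16 CPM at 24 h. Its means at the 2 times were 9.3 and 11.7 CPM with i-BET858 and 11 and 10.3 CPM with i-BET151. Each drug's 2 times rest on separate DMSO libraries, but both drugs share them at each time.

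**Figure D4:**
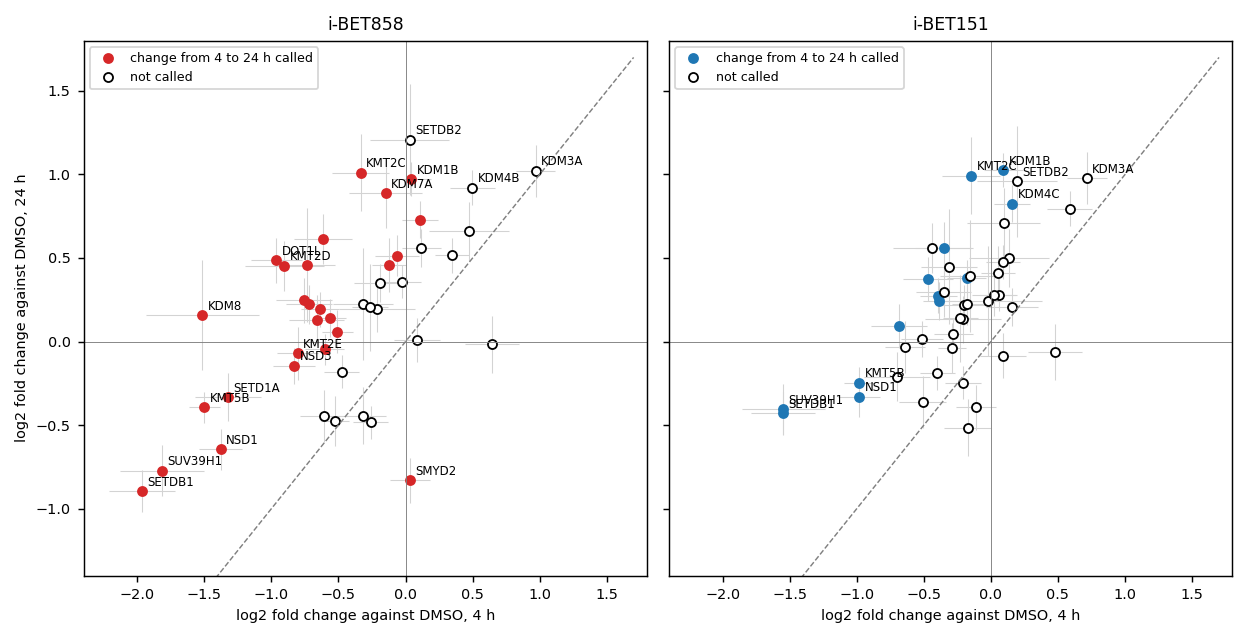
log2 fold change against DMSO at 4 h (x axis) and 24 h (y axis) for the 44 genes with i-BET858 (left) and i-BET151 (right); grey bars are SE, filled points passed the test of the change between the times, and the dashed line marks equal effects. Nearly all filled points lie above the line, with SMYD2 below it on the left.

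Sorted by their calls with i-BET858 in the fits without the replicate block, the 44 genes fell into few patterns. The counts describe the listed genes only, with no share of all genes tested beside them. A group of 6 fell at both times (NSD1, NSD2, SETDB1, SUV39H1, EHMT2 and KMT5B), all of them methyltransferases, the larger class among the listed genes. The calls of NSD2 and EHMT2 at 24 h were lost without some single libraries. Another 13 fell at 4 h and were not called at 24 h, and 13 rose at 24 h without a call at 4 h. KDM3A and KDM4B rose at both times, KMT2D and DOT1L changed sign, EZH2 was called higher at 4 h only, and SMYD2 and KDM2B were called lower at 24 h only. The replicate block moved some genes. KDM5A (adjusted p = 0.000479 and 0.000355) and EZH1 (0.00408 and 0.0105) were then also lower at 4 h and higher at 24 h. SETD1A (0.0148 at 24 h) and EED (0.0306 and 0.00735) were then lower at both times, and KDM5B (0.00966 at 4 h) higher at both. KMT2A, SETD1B, SUV39H2 and JMJD1C were not called in any comparison with DMSO, and SETDB1, KDM3A and KDM4B were called in all 4. A gene missing a call at one time is not thereby shown to differ between times; that is what the test of the change addresses.

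In DMSO alone, the values at 24 h leaned below those at 4 h: 33 of 44 log2 differences were negative, with a median of −0.13 against −0.0064 over all genes. None of the 44 was called by edgeR between 24 and 4 h, against 0.0386% of all genes (7 of 18154), while 8 had an unadjusted p under 0.05 (18.2%, against 9.17% of all genes) and DESeq2 called 2 (4.55%, against 1.28%), KMT5B (−0.47, SE 0.10, adjusted p = 0.00178) and KMT5C (0.56, SE 0.16, adjusted p = 0.0336). The same pair was called with the replicate block (4.55%, against 2.07% of all genes in that fit).

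The 2 drugs were then compared with each other at the same dose. No listed gene was called by edgeR between i-BET858 and i-BET151 at 4 h, against 0.971% of all genes, and none at 24 h, against 0.21%. At 4 h the values still leaned one way: 38 of 44 log2 differences were negative (lower with i-BET858), with a median of −0.17 against 0.02 over all genes, 9 had an unadjusted p under 0.05 (20.5%, against 11.9% of all genes), and DESeq2 called 1, KMT5B (2.27%, against 5.21%). KMT5B differed by −0.52 (95% confidence interval −0.77 to −0.27, adjusted p = 0.0586) and KDM8 by −1.49 (−2.42 to −0.57, adjusted p = 0.135). SETD1A differed by −0.62 (−1.17 to −0.08, adjusted p = 0.323), KMT2B by −0.52 (−0.89 to −0.14, adjusted p = 0.209) and DOT1L by −0.50 (−0.91 to −0.08, adjusted p = 0.3). With the replicate block 8 genes were called at 4 h (18.2%, against 9.63% of all genes in that fit), all lower with i-BET858: KMT2B, KMT2D, SETD1A, NSD1, EHMT1, DOT1L, KMT5B (adjusted p = 0.00339) and KDM8 (adjusted p = 0.046).

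At 24 h 21 of the 44 log2 differences were negative, with a median of 0.01, 6 had an unadjusted p under 0.05 (13.6%, against 11.4% of all genes) and DESeq2 called none (against 2.97%). SETDB1 differed by −0.47 (−0.75 to −0.18, adjusted p = 0.18), SMYD2 by −0.44 (−0.73 to −0.14, adjusted p = 0.234) and NSD2 by −0.44 (−0.77 to −0.11, adjusted p = 0.281). The block called 2 genes (4.55%, against 4.37% of all genes), SETDB1 (−0.46, SE 0.11, adjusted p = 0.0296) and NSD2 (−0.44, SE 0.08, adjusted p = 0.0143). These intervals do not show that the drugs act alike on the listed genes.

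Ratios between related genes in the same library do not depend on the scaling between libraries. Pairs of paralogues were picked after their values were seen, so their ratios, taken per kb of transcript, are a description. SETDB1 stood above SETDB2 by 7.19, 6.33 and 9.78 times in DMSO at 4 h and by 1.65, 1.05 and 4.18 times with i-BET858. At 24 h the ratio was 6.80, 7.54 and 23.8 in DMSO and 2.10, 1.91 and 2.97 with i-BET858. The excess of SETDB1 was thus smaller in all treated libraries.

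KDM3A stood below KDM3B in all DMSO libraries, at 0.704, 0.664 and 0.519 times its level at 4 h, and above it with i-BET858 at 4 h, at 2.04, 2.41 and 1.41 times, and with i-BET151 at 1.5, 1.63 and 1.01 times. At 24 h it was above KDM3B in replicates 1 and 2 of both drugs and below it in replicate 3, at 0.899 and 0.847 times. EZH2 exceeded EZH1 by 10.7, 10.8 and 12.0 times in DMSO at 4 h, by 27.3, 36.9 and 23.0 times with i-BET858 and by 19.8, 20.4 and 16.7 times with i-BET151; at 24 h the groups overlapped. SUV39H1 went from 0.650, 0.659 and 0.922 times SUV39H2 in DMSO at 4 h to 0.162, 0.150 and 0.273 times with i-BET858. For KMT5B over KMT5C the ratio went from 3.49, 2.89 and 3.52 to 1.47, 1.04 and 1.55, and SMYD3 passed SMYD2 in all 3 libraries of i-BET858 at 24 h (1.31, 1.42 and 1.41 times, against 0.439, 0.484 and 0.537 in DMSO), while with i-BET151 it stood at 0.961, 1 and 0.786 times.

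**Figure D5:**
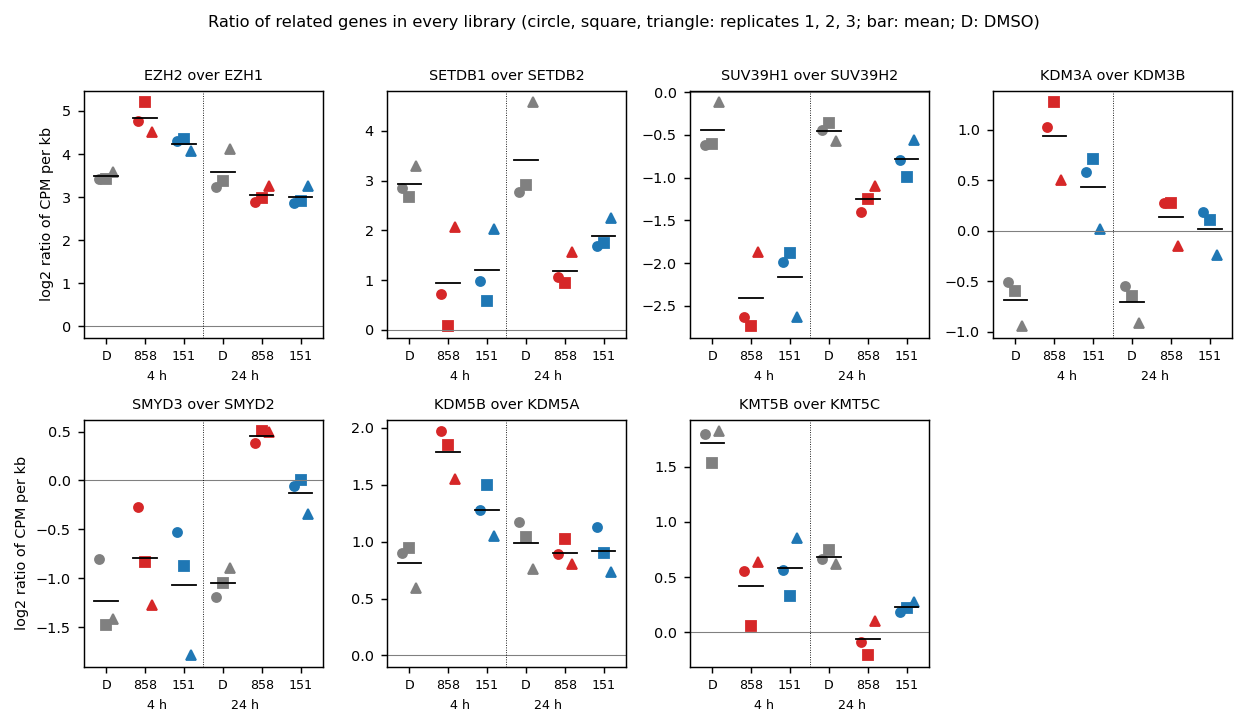
log2 ratio of CPM per kb between related genes (y axis) in every library, by group as in the plot of levels; the horizontal grey line marks equal levels and the short bars are means of 3 replicates. The ratio of KDM3A to KDM3B was above the line in every library of either drug at 4 h and below it in all DMSO libraries, and that of SMYD3 to SMYD2 was above it in the 3 libraries of i-BET858 at 24 h and close to it in 2 of i-BET151.

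The partners of these enzymes, taken from lists of complex subunits, moved in both directions. The counts below are for i-BET858 and stand beside 30.8% of all genes called at 4 h and 41.7% at 24 h. Of 12 core and cofactor subunits of the COMPASS complexes, 6 fell and none rose with i-BET858 at 4 h, led by NCOA6 (−1.61, SE 0.16, adjusted p = 2.52e-05), a coactivator of the KMT2C and KMT2D complexes; at 24 h 3 rose and 2 fell. Of 8 PRC2 accessory subunits, 1 rose and 2 fell at 4 h: JARID2 (0.99, SE 0.14, adjusted p = 0.000273) and AEBP2 (−1.49, SE 0.13, adjusted p = 1.2e-05) belong to the same form of the complex. At 24 h 2 rose and 1, PHF19, fell (−2.06, SE 0.15, adjusted p = 3.54e-06). Of 9 partners and readers of H3K9 methylation, 1 rose and 3 fell at 4 h; TRIM28, the corepressor that recruits SETDB1, rose by 0.85 (SE 0.08, adjusted p = 2.77e-05), opposite to SETDB1.

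Of 9 CoREST partners of KDM1A, 3 rose and 5 fell with i-BET858 at 4 h, with RCOR2 at 1.58 (SE 0.17, adjusted p = 4.13e-05), RCOR1 at 0.92 (SE 0.13, adjusted p = 0.000265) and RCOR3 at −1.11 (SE 0.13, adjusted p = 7.4e-05), while KDM1A itself was at −0.02. Of 2 DOT1L partners tested, MLLT10 fell by 1.95 (SE 0.28, adjusted p = 0.000351) at 4 h and was still lower at 24 h (−0.72, SE 0.14, adjusted p = 0.0019), when DOT1L was higher; MLLT6 was at −0.30, not called, at 4 h and fell by 1.07 (SE 0.23, adjusted p = 0.00382) at 24 h. Of 9 arginine methyltransferases tested, 3 fell and none rose at 4 h, with PRMT6 at −1.56 (SE 0.22, adjusted p = 0.000265). Of 13 other SET-domain genes, 7 fell and 1 rose at 4 h, with a median of −0.55. Of 11 other JmjC genes tested, 5 fell and 1 rose, with a median of −0.47. At 24 h 2 rose and 5 fell of the other SET-domain genes (median −0.09), 3 rose and 2 fell of the other JmjC genes (median −0.05), 1 rose and 3 fell of the arginine methyltransferases, and 2 rose and 2 fell in each of the CoREST and H3K9 lists.

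Proliferation and gene length were set beside these results, since both could move with them. Of 20 proliferation-linked genes, 1 rose and 5 fell with i-BET858 at 4 h and 2 rose and 4 fell at 24 h, beside the same 30.8% and 41.7% of all genes; their summed level was 2540 to 2780 CPM with i-BET858 and 2860 to 2980 in DMSO at 4 h, and 3280 to 3440 and 3070 to 3150 at 24 h. The listed genes span a median of 72.9 kb of genome, against 34.3 kb for all protein-coding genes tested. Those that fell with i-BET858 at 4 h spanned 59.0 kb, less than the 87.2 kb of those not called, whereas over all protein-coding genes those that fell spanned 39.3 kb and those not called 35.4 kb. At 24 h the risers spanned 84.0 kb among the listed genes and 43.0 kb among all. The part of either in the results was not tested.

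The directions held in replicate 3 taken alone. All 24 genes called with i-BET858 and all 9 called with i-BET151 at 4 h kept their direction there, as did all 25 and all 15 called at 24 h. This is no separate replication, since replicate 3 took part in the calls. The median log2 ratio over the 44 genes was −0.43 in replicate 3 and −0.41 in replicates 1 and 2 for i-BET858 at 4 h, but 0.43 and 0.10 for i-BET858 at 24 h and 0.33 and 0.09 for i-BET151. Among the 18 libraries, DMSO replicate 3 of 24 h was the lowest for 9 of the 44 genes: KMT2A, JMJD1C, KMT2C, SETD2, SETDB2, KDM2A, KDM3A, KDM4B and KDM5B. The last 7 of these are among the 17 genes that rose with i-BET858 at 24 h, and 6 of them, all but SETD2, among the 12 that rose with i-BET151. Without that library the median of the 7 moved from 0.92 to 0.77 and the call of SETD2 was lost (adjusted p = 0.0797), and the median of the 6 moved from 0.88 to 0.68 and the call of KDM2A with i-BET151 was lost (adjusted p = 0.0577). The count of 9 genes has no share of all genes beside it. Because the genes of these medians were picked as lowest in that library, smaller medians without that library follow from the choice. Over the whole set, without it 22 genes were called for i-BET858 (50%, against 39.1% of all genes) and 15 for i-BET151 (34.1%, against 31%). Counted by non-overlap of the 3 treated and 3 DMSO values, 23 of the 44 were lower and 4 higher with i-BET858 at 4 h (23.7% and 20.9% of all genes), and 8 lower and 18 higher at 24 h (27% and 28.2%). With i-BET151, 15 were lower and 3 higher at 4 h (19.2% and 17.4% of all genes), and 9 lower and 20 higher at 24 h (24% and 24.9%).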

How the data were processed

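The authors aligned paired-end reads of poly-A RNA to GRCh38 with STAR and deposited whole-number counts per gene from STAR's gene counting, without normalization; the annotation, the strand column and the STAR version are not given in the sources used here. The 2 tables hold 58825 genes, of which 23896 have no count; 58472 (99.4%) matched GENCODE 44, which gave symbols and positions. Each table holds the 9 libraries of 1 time.

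Counts were normalized by TMM and tested with edgeR 4.0.16 (quasi-likelihood, edgeR's filter on low counts) in R 4.3.3. The 9 libraries of a time were fitted together for drug against DMSO and drug against drug; all 18 were fitted for the change of an effect from 4 to 24 h and for DMSO over time. A call needs a Benjamini-Hochberg adjusted p under 0.05 over all genes tested. The study's methods name DESeq2, which was run as an alternative (version 1.42.0). Other alternatives were DESeq2's size factors, total library size, no filter, at least 10 counts in every library, other sets of libraries in the fit, the replicate number as a block, replicates 1 and 2 only, each library left out, and fold minimums of 1.5 and 2. The scripts were tested on simulated data.

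To check the replicate numbers, the deviations of log2 CPM from the group means were correlated between libraries: those sharing a number gave 0.141 to 0.365 at 4 h and 0.161 to 0.352 at 24 h (9 pairs each), against −0.341 to 0.233 and −0.329 to 0.326 for other numbers (18 pairs each). All lay above 0.1, so the numbers were taken to pair the libraries.

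The listed genes, the partner and marker lists and the tests were chosen with earlier results of these data known. Genes called against DMSO were named with their statistics. Values in every library were given for the 16 called genes with the largest fold changes, at least 1.5-fold, and for other called genes where a comparison needed them. Up to 3 genes of each partner list were named, those with the largest change among those called with i-BET858. Where replicates differ in ways the numbers do not record, p-values measure only the spread between these libraries. A count of 0 would allow 0.0648 to 0.11 CPM (3 counts in a library; counting error only).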

Additional observations from a re-analysis of the deposited data

Results flagged for a closer look

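The effect of a drug differed between 4 and 24 h, by the test of the difference itself, in 26 listed genes for i-BET858 and in 13 for i-BET151. The values here are the log2 fold change at 24 h minus that at 4 h.

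For i-BET858 the change was upward in 17 writers and PRC2 subunits: DOT1L (1.49), KMT2D (1.40), KMT2C (1.39), EZH1 (1.24), KMT5B (1.15), SETDB1 (1.11), SUV39H1 (1.09), SETD1A (1.03), KMT2B (0.98), ASH1L (0.84), NSD1 (0.78), KMT2E (0.78), SUZ12 (0.75), NSD3 (0.73), SETD2 (0.62), EHMT1 (0.61) and KMT5A (0.60). It was upward in 8 demethylases: KDM8 (1.72), KDM5A (1.27), KDM7A (1.08), KDM6B (1.04), KDM1B (0.97), KDM3B (0.87), KDM4C (0.66) and KDM4A (0.62). It was downward in SMYD2 (−0.82), which was close to DMSO at 4 h and lower at 24 h. Alternative fits lost the calls of SETD2 (14 of 26 fits), EZH1 (10), KDM4A (10), KDM7A (7), SUV39H1 (6) and ASH1L (5). The calls of KMT5A and KDM8 were lost in 1 each.

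For i-BET151 all 13 changes were upward: SUV39H1 (1.16), KMT2C (1.16), SETDB1 (1.14), KDM1B (0.95), KDM5A (0.94), DOT1L (0.86), KDM6B (0.80), KMT5B (0.75), KDM4C (0.69), KDM3B (0.69), NSD1 (0.67), SUZ12 (0.65) and KDM2A (0.58). Of these genes, 12 were also called for i-BET858, KDM2A being the exception, but both drugs were set against the same DMSO libraries. Calls for i-BET151 were lost for KDM2A (18 of 26 fits), KDM6B (16), SUV39H1 (11) and NSD1 (10). Fewer fits lost those of KMT2C (8), KDM5A (8), DOT1L (2) and KDM4C (1). For KMT5B the DMSO level at 24 h was lower than at 4 h (−0.49, adjusted p = 0.0749 by edgeR), and for KDM7A likewise (−0.75, adjusted p = 0.308). ASH1L went from a mean of 61 to 40.8 CPM in DMSO, and from 38.4 to 45.8 with i-BET858. Its change in DMSO was called without the filter on low counts (−0.587, adjusted p = 0.0456 by edgeR). The part of the controls in these changes was not tested.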

How the results depend on the processing

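Of 2328 values of called genes under the alternatives, none changed direction, 2058 stayed past the threshold and 270 did not; 66 of 112 calls held in every alternative fit, the fold minimums not counted. DESeq2 and the replicate block kept all 112, and most of the losses (223 of 1359 values) came from leaving out single libraries. The cause was not tested, beyond the smaller number of libraries in that case.

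In the fit with the replicate block, 20 genes were called for i-BET151 at 4 h, 24 for i-BET151 at 24 h, 22 for the change of the i-BET151 effect, 8 and 2 between the drugs at 4 and 24 h, and 2 for DMSO over time; elsewhere it moved no count by over 1.5 times. Replicates 1 and 2 only gave 16 for i-BET151 at 4 h (36.4%, against 25.9% of all genes in that fit), 27 for i-BET151 at 24 h (61.4% against 54.2%), and 1 and 2 between the drugs at 4 and 24 h (2.27% against 2.29% and 4.55% against 7.29%). For i-BET858 at 24 h they gave 65.9% against 60.7%, a smaller excess than the 56.8% against 41.7% from all 3 replicates. Total library size gave 14 for i-BET151 at 4 h (31.8% against 16.8%) and 1 between the drugs at 4 h (2.27% against 1.93%). Between the drugs at 4 h DESeq2 gave 1 (2.27% against 5.21%), no filter 2 (4.55% against 1.6%), at least 10 counts in every library 1 (2.27% against 1.6%), and all 18 libraries in 1 fit 2 (4.55% against 3.02%). For DMSO over time DESeq2 gave 2 (4.55% against 1.28%) and no filter 1 (2.27% against 0.461%).

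A minimum of 2-fold left 6 and 2 genes at 4 h and 3 and 1 at 24 h for i-BET858 and i-BET151, and 12 and 3 for the changes of their effects. A minimum of 1.5-fold left 13 and 7 at 24 h (29.5% and 15.9%, below the 31.3% and 24.4% of all genes). Leaving out each library in turn gave 16 to 26 and 5 to 13 genes at 4 h, 19 to 27 and 8 to 17 at 24 h, 21 to 27 and 6 to 15 for the changes, 0 between the drugs at both times and 0 for DMSO over time. The count of 5 came without i-BET151 replicate 2 of 4 h (11.4%, against 9.44% of all genes). For i-BET151 at 24 h the count was 8 without DMSO replicate 2 (18.2% against 24.7%) and 9 without i-BET151 replicate 2 (20.5% against 23.8%), and the share lay below that of all genes without any 1 of 6 of the 9 libraries. For the other comparisons with DMSO and the changes of the effects it lay above that of all genes without each library. The count for the change of the i-BET151 effect moved by over 1.5 times without DMSO replicate 2 or 3 or i-BET151 replicate 1 or 2 of 4 h, or without replicate 2 or 3 of DMSO or i-BET151 of 24 h.

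Total library size moved the median of all genes from 0.02 to −0.14 with i-BET858 at 4 h, where 1746 genes were then higher and 3718 lower, in place of 2497 and 2806; between the drugs it gave 55 higher and 276 lower at 4 h and 15 and 41 at 24 h, in place of 71 and 96, and 16 and 20. Depth limits KDM8 most, whose lowest count in a library was 11.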
